A study of Rattus norvegicus with 4 samples.

Results

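The genes examined were 10 members of the BCL2 family: the survival genes Bcl2, Bcl2l1 and Mcl1, the effectors Bax, Bak1 and Bok, and the BH3-only genes Bcl2l11, Bid, Bad and Bmf. Members were taken by symbol, and every probe set whose platform symbol was that member alone was used, which gave 16 of the 31042 probe sets and 9 of the 10 genes. Bax shared its probe set with a second gene symbol and is not analysed here. Expression was measured on 4 Affymetrix arrays hybridised with RNA of whole rat ovaries taken on day 4 after birth and kept as organ cultures for 2 days. The control group (2 samples) had no added factor and the GDNF group (2 samples) received glial cell line-derived neurotrophic factor, a ligand of the Ret receptor tyrosine kinase, at a dose not given in the sources used here. Both groups shared a serum-free medium with insulin, transferrin, ascorbic acid, albumin and antibiotics. Each sample pooled 6 to 10 ovaries, and the labels name neither a strain nor separate litters for the replicates. The titles and descriptions give the groups, while the treatment text is the same for all 4 samples and ends with the untreated condition.

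BCL2 family proteins decide whether the outer membrane of the mitochondrion is opened, the step that commits a cell to intrinsic apoptosis. Survival members bind and restrain both the effectors, which form the pores, and the BH3-only proteins, which sense stress and engage the other classes. Many oocytes die around the time when primordial follicles form, and in mice the size of the follicle reserve changes when members of this family are deleted. Several members are controlled after transcription, Bad by phosphorylation and Bid by cleavage, which an expression array does not measure.

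No BCL2 family gene differed between GDNF and control ovaries beyond the test threshold. Of the 7 genes bright enough to test, 5 had a lower and 2 a higher mean signal with GDNF, and their median log2 fold change was -0.10, beside -0.01 over all probe sets tested. That median was -0.019 without GDNF replicate 1, beside -0.023 over all probe sets tested. It was -0.0019 without the signal filter, which adds Bcl2 and Bmf, beside -0.013. In these fits the members' median was not below that of all probe sets. None had an adjusted p under 0.05 in limma (0 of 7, beside 0% of the 18625 probe sets tested), and none had an unadjusted p under 0.05 (0 of 7, beside 2.73%). The adjusted p was 0.999 for each of the 7. Mcl1, Bcl2l11 and Bid had both GDNF samples below both control samples (3 of 7 genes, beside 16.6% of all probe sets tested), and no tested member had both above (0 of 7, beside 13.4%). With 2 samples a group the smallest two-sided p of an exact permutation test is 0.333, so the limma fit, which borrows the spread of all probe sets, was used throughout.

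Signals are MAS5 intensities in linear units, and fold changes are differences of log2(signal + 1), GDNF minus control. A probe set was tested if its mean over the 4 arrays reached the 40th percentile, a signal of about 21.4. This kept 9 of the 16 probe sets and 7 genes, and left out Bcl2 and Bmf. Brightness depends on the probes as well as on the transcript, so signals of different probe sets do not rank the genes. The labelled tissue was checked against its markers: the oocyte genes Gdf9 and Zp3 read at least 545 and 1665, and the granulosa cell gene Foxl2 at least 591, on all 4 arrays.

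**Figure D1:**
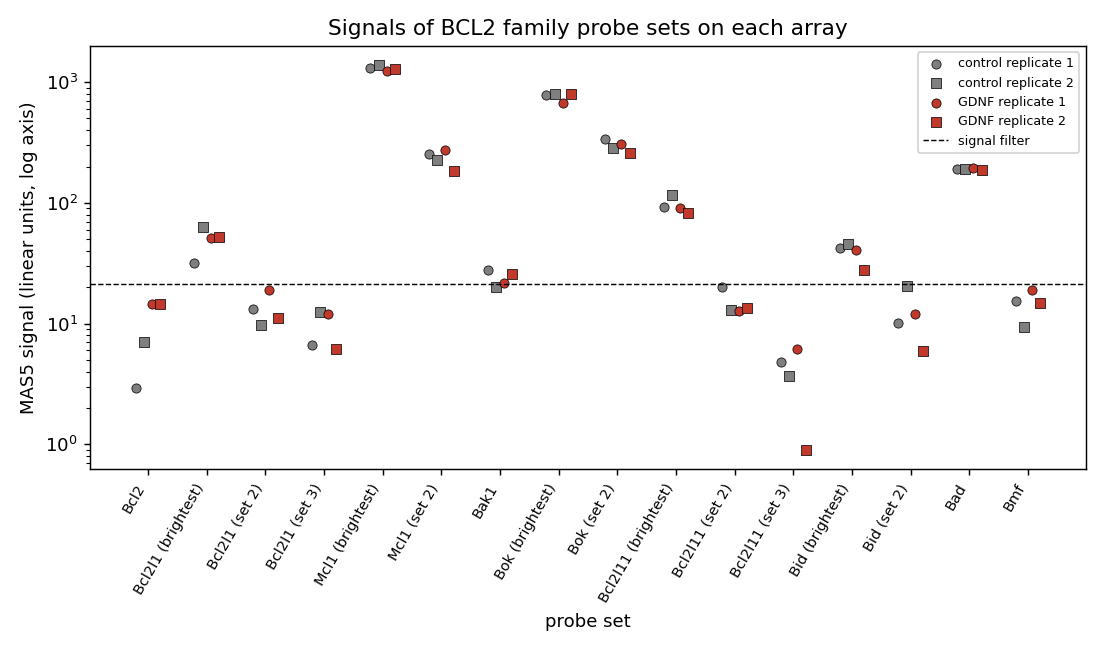
MAS5 signal (linear units on a log axis) of the 16 BCL2 family probe sets on the 2 control arrays (grey) and the 2 GDNF arrays (red), with the signal filter as a dashed line. The brightest probe sets of Mcl1 and Bok and that of Bad lie far above the filter, while Bcl2 and Bmf lie below it on every array.

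Among the survival genes, Mcl1 had the smallest standard error. It encodes a short-lived protein on which primordial follicle oocytes of the mouse depend. Its brightest probe set read 1302 and 1382 (1342 ± 57.1, SD, n = 2) on control arrays 1 and 2, against 1231 and 1273 (1252 ± 30.1) on GDNF arrays 1 and 2. Both GDNF arrays were below both control arrays, by a narrow margin. The log2 fold change was -0.10 (SE 0.10), with a 95% interval from 0.799-fold to 1.09-fold. The second Mcl1 probe set read 256 and 225 on the control arrays and 274 and 183 on the GDNF arrays. There the groups overlapped and GDNF replicate 1 was the highest array. This probe set had a log2 fold change of -0.10 (SE 0.20), -0.39 without GDNF replicate 1 and 0.19 without GDNF replicate 2.

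Bcl2l1 encodes BCL-XL, a survival protein needed by germ cells of the fetal gonad. Its brightest probe set read 32.0 and 63.4 (47.7 ± 22.2) on the control arrays and 51.6 and 52.6 (52.1 ± 0.707) on the GDNF arrays. The GDNF samples lay between the control samples, which were the farthest apart of any tested member. Its log2 fold change of 0.20 (SE 0.33) became -0.28 without control replicate 1 and 0.69 without control replicate 2. Its other probe sets were below the filter and overlapped between groups, at 9.8 to 13.2 on the control arrays and 11.1 to 19.1 on the GDNF arrays for the brighter, and 6.7 to 12.5 and 6.2 to 12.0 for the dimmer.

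Bcl2, the founding survival member, had a single and very dim probe set. It read 2.9 and 7.0 (4.95 ± 2.90) on the control arrays and 14.4 and 14.4 on the GDNF arrays. Both GDNF samples were above both controls, and all 4 signals lay below the filter. Its difference depended on the constant added before the logarithm, at 1.46 with log2(signal + 1) and 0.54 with log2(signal + 16). In the fit without a signal filter its 95% interval was 0.16 to 2.77 on the log2 scale, with an unadjusted p under 0.05 and a limma adjusted p of 0.999. At such signals a level of the transcript could not be read.

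The effectors were represented by Bok and Bak1. Bok, a BAX-like pore former abundant in reproductive tissue, read 781 and 799 (789.6 ± 12.7) on the control arrays and 676 and 802 (739 ± 89.0) on the GDNF arrays. GDNF replicate 1 was the lowest array and GDNF replicate 2 the highest, so the groups overlapped. The log2 fold change was -0.10 (SE 0.12; 95% interval 0.771-fold to 1.13-fold), and 0.02 without GDNF replicate 1. Its second probe set, at 335 and 285 on the control arrays and 306 and 261 on the GDNF arrays, had -0.13 (SE 0.14) with overlap, and -0.01 without either control replicate 1 or GDNF replicate 2.

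Bak1, which forms the mitochondrial pore in place of or beside BAX, read 27.9 and 20.2 on the control arrays and 21.8 and 25.8 on the GDNF arrays. Both GDNF values lay between the controls, and the signals were close to the filter. This gave a log2 fold change of -0.0019 (SE 0.31), and its 95% interval ran from 0.606-fold to 1.65-fold. The sign turned with the array left out, from -0.23 without control replicate 2 to 0.22 without control replicate 1.

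The 2 lowest fold changes among tested members were those of the BH3-only genes Bid and Bcl2l11. Bid, which links death receptors to mitochondria once it is cleaved, read 42.6 and 45.8 (44.2 ± 2.26) on the control arrays and 40.7 and 27.8 (34.2 ± 9.12) on the GDNF arrays. GDNF replicate 2 stood apart, and GDNF replicate 1 was only just below the controls. Its log2 fold change was -0.38 (SE 0.27; 95% interval 0.497-fold to 1.18-fold). It was -0.65 without GDNF replicate 1 and -0.12 without GDNF replicate 2. The dimmer Bid probe set, below the filter, read 10.2 and 20.3 on the control arrays and 12.1 and 5.9 on the GDNF arrays. The groups overlapped there, and GDNF replicate 2 was again the lowest array.

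Bcl2l11 encodes BIM, a BH3-only protein that binds all survival members and is a target of FOXO transcription factors. The brightest of its 3 probe sets read 91.9 and 116 (104 ± 17.1) on the control arrays and 91.3 and 82.9 (87.1 ± 5.94) on the GDNF arrays. The groups did not overlap, but control replicate 1 and GDNF replicate 1 were nearly equal. The log2 fold change was -0.25 (SE 0.18; 95% interval 0.625-fold to 1.14-fold), and it ran from -0.41 without control replicate 1 to -0.08 without control replicate 2. The other probe sets were below the filter, at 19.9 and 12.9 on the control arrays and 12.6 and 13.4 on the GDNF arrays, and at 4.8 and 3.7 against 6.2 and 0.9. Both overlapped between the groups.

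Bad, which growth factor signalling inactivates by phosphorylation, was the steadiest member. It read 190.3 and 189 (189.7 ± 0.919) on the control arrays and 196 and 187 (191 ± 6.15) on the GDNF arrays, with the controls inside the range of the GDNF samples. This gave a log2 fold change of 0.01 (SE 0.13), with a 95% interval from 0.82-fold to 1.24-fold, and it became -0.02 without GDNF replicate 1. Bmf, a BH3-only gene linked to oocyte loss in mice, was below the filter. It read 15.3 and 9.4 on the control arrays and 18.8 and 14.8 on the GDNF arrays, which overlapped.

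**Figure D2:**
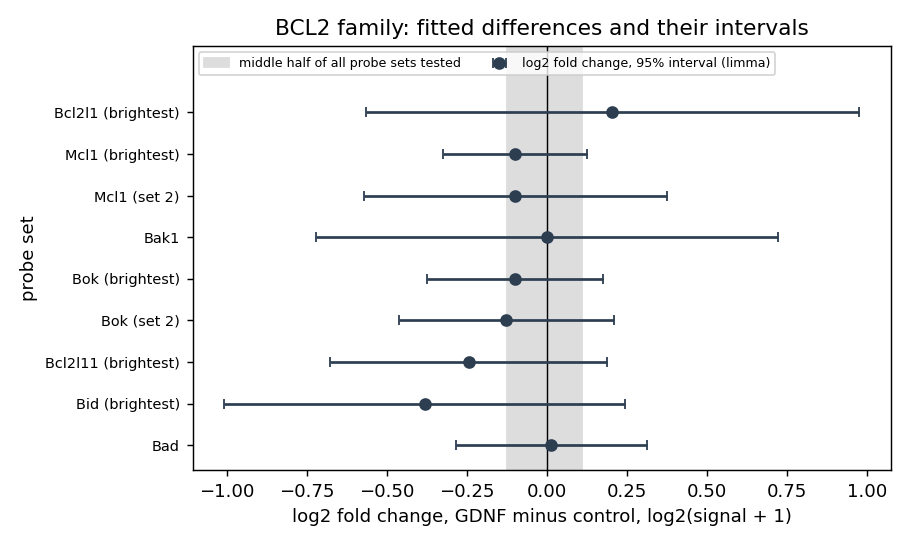
Log2 fold change (GDNF minus control, log2(signal + 1)) of the 9 tested BCL2 family probe sets, with limma's 95% intervals. Every interval includes 0. Those of Mcl1 (brightest), Bok (brightest) and Bad are the narrowest, and the grey band from -0.12 to 0.11 holds the middle 50 percent of all probe sets tested.

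What the arrays could resolve differed widely between members. Standard errors of the 7 brightest probe sets ran from 0.10 for Mcl1 to 0.33 for Bcl2l1, beside a median of 0.18 over all probe sets tested. For Mcl1, Bok and Bad the whole 95% interval lay within 1.5-fold in either direction (3 of 7 genes, beside 53.9% of all probe sets tested). For Bid, Bcl2l11, Bak1 and Bcl2l1 the interval extended past 1.5-fold in at least 1 direction. The difference between groups was larger than both gaps between replicates in 1 of the 9 tested probe sets, beside 19.1% of all. That probe set was the brightest of Mcl1, with a group difference of 0.10 and gaps of 0.09 on the control arrays and 0.05 on the GDNF arrays.

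**Figure D3:**
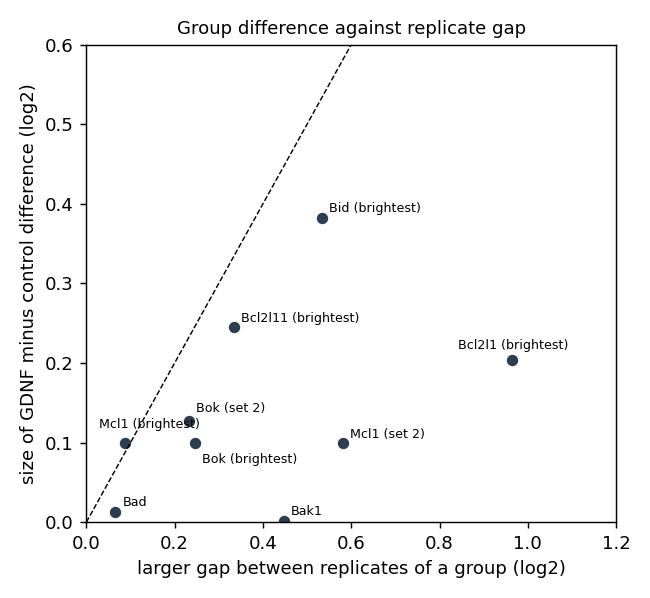
Size of the group difference (y axis, log2) against the larger gap between replicates of a group (x axis, log2) for the 9 tested probe sets. The dashed line marks equality. The brightest probe set of Mcl1 lies just above it, and Bcl2l1 lies farthest to the right, with a gap of 0.96 between the controls.

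Which arrays were high or low differed between members. Control replicate 2 held the highest signal for 4 of the 7 genes (Mcl1, Bcl2l1, Bcl2l11 and Bid), and GDNF replicate 2 the lowest for 3 (Bcl2l11, Bid and Bad). Relative to the mean of the 4 arrays, the 7 genes had a median of 0.01 on control array 1, 0.09 on control array 2, -0.05 on GDNF array 1 and -0.03 on GDNF array 2. For beta-actin, the 3′ control probe set divided by its 5′ partner, a measure of RNA integrity, gave 2.62 in GDNF replicate 1 and 3.34 to 3.76 on the other 3 arrays. The same measure for Gapdh was highest in GDNF replicate 2, at 1.44, and 1.11 to 1.28 on the other 3. The part of RNA integrity in these values was not tested. Markers of other cells that could be in the ovary differed in direction between cell types. All 7 tested surface epithelium markers had a lower mean with GDNF (8 listed, median log2 fold change -0.22). Of these, 2 had an unadjusted p under 0.05 in limma (beside 2.73% of all probe sets tested). Krt7, Krt19 and Wt1 did not overlap (3 of 7, beside 16.6% of all probe sets tested). The second Wt1 probe set did, at 160.9 and 174.5 on the control arrays and 208 and 100.7 on the GDNF arrays. The 7 markers summed to 8251 and 7174 on the control arrays and 6786 and 6280 on the GDNF arrays, with none at 0 on all arrays. Krt19 was the largest part, at 4091 and 3632 against 3365 and 3236. All 4 tested endothelium markers also had a lower mean (6 listed, median -0.12), though Emcn was nearly level at -0.0025. Kdr did not overlap (1 of 4, beside 16.6% of all probe sets tested). Vwf, below the filter, had a higher mean, at 21.7 and 17.2 on the control arrays and 21.1 and 25.3 on the GDNF arrays. The 5 measured ones summed to 1274 and 1284 on the control arrays and 1187 and 1117 on the GDNF arrays. Kdr was the largest part, at 903 and 920 against 818 and 778. The granulosa list had 5 of 7 tested markers higher and 2 lower (median 0.18). Of these 7, 4 were higher without overlap (beside 13.4% of all probe sets tested) and 1 lower (beside 16.6%). An unadjusted p under 0.05 in limma was held by 3 (beside 2.73%). Fst, counted as higher, was nearly level at 0.0045, and its second tested probe set had -0.09. The theca and steroidogenic list had 3 of 5 higher and 2 lower (0.19), and the erythroid list 2 of 2 higher (0.11). The part of these markers in the members' values was not tested.

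Other BCL2 family genes gave 9 tested genes of 13 listed, 4 higher and 5 lower with GDNF (median log2 fold change -0.04), and none passed adjusted p under 0.05 in limma. Without control replicate 1 only 2 were higher. Bcl2l10, a survival-type member known for its expression in oocytes, was the 1 gene of these 9 with an unadjusted p under 0.05 (beside 2.73% of all probe sets tested). It read 69.2 and 57.9 on the control arrays and 94.1 and 87.6 on the GDNF arrays. It was the 1 gene of these 9 with both GDNF arrays above both controls, beside 13.4% of all probe sets tested. Its log2 fold change was 0.51 (SE 0.18, limma adjusted p = 0.999), and it stayed between 0.39 and 0.64 with any 1 array left out. Bnip3l, a mitochondrial receptor of mitophagy, came next with 0.12 (SE 0.11), and 0.01 without GDNF replicate 2.

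The lowest were Bcl2a1 and Bcl2l2. They were the 2 of 9 tested genes with both GDNF arrays below both controls, beside 16.6% of all probe sets tested. Bcl2a1, an NF-kB-induced survival gene typical of leukocytes, read 57.6 and 78.6 on the control arrays and 46.0 and 52.8 on the GDNF arrays. Its groups did not overlap, and the log2 fold change was -0.44 (SE 0.23, limma adjusted p = 0.999), or -0.22 without control replicate 2. Bcl2l2, which encodes the survival protein BCL-W, read 120 and 142 on the control arrays and 104 and 110 on the GDNF arrays, also without overlap (log2 fold change -0.28, SE 0.16, adjusted p = 0.999).

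Markers of oocytes and leukocytes were read beside these genes. All 6 measured oocyte markers of 12 listed (Gdf9, Bmp15, Zp1, Zp2, Zp3 and Sohlh1) had a higher mean in GDNF samples. Of these 6, 4 were higher without overlap (beside 13.4% of all probe sets tested). An unadjusted p under 0.05 in limma was held by 3 (beside 2.73%), and none passed the adjusted threshold. The summed signal of the 6 was 3983 and 4967 on the control arrays and 5249 and 6654 on the GDNF arrays. Of the 7 tested leukocyte markers 6 had a lower mean by their brightest probe set. The second tested Laptm5 probe set went the other way, at 28.4 and 12.8 on the control arrays and 32.4 and 29.6 on the GDNF arrays. The summed signal of the 8 measured leukocyte markers was 816 and 650 on the control arrays and 887 and 516 on the GDNF arrays, which overlapped. Cd74 was the largest part of that sum, at 436 and 336 on the control arrays and 562 and 239 on the GDNF arrays. Cd68 and Csf1r were lower without overlap (2 of 7, beside 16.6% of all probe sets tested). No measured marker of either list was at 0 on all arrays; Cd3e was the dimmest leukocyte marker, at 3.6 to 8.4. The part of these markers in the values of Bcl2l10 and Bcl2a1 was not tested. In whole ovaries, fewer cells of a type and less RNA per cell cannot be told apart.

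**Figure D4:**
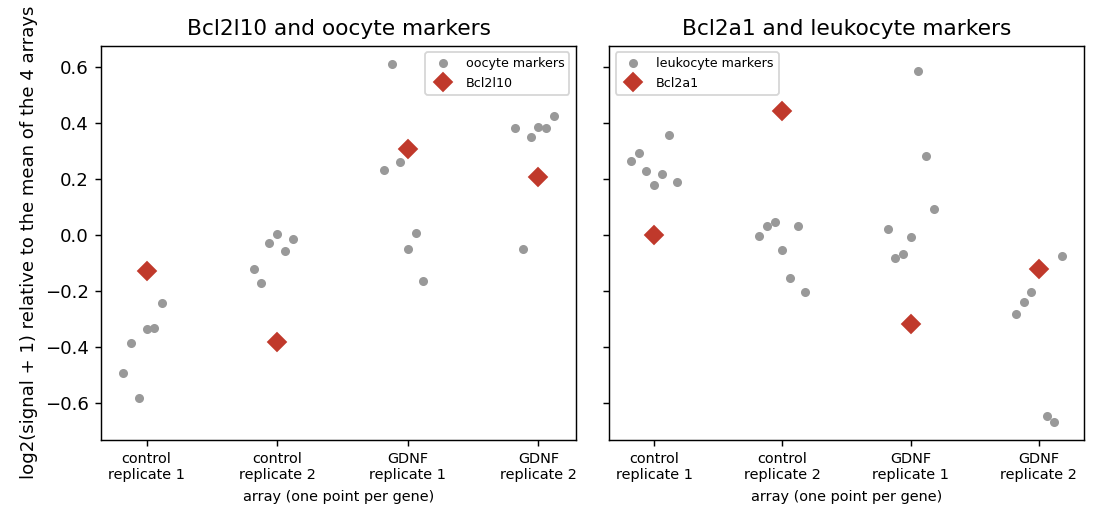
Log2(signal + 1) relative to the mean of the 4 arrays (y axis) for Bcl2l10 with the 6 tested oocyte markers, and for Bcl2a1 with the 7 tested leukocyte markers, on each array (x axis). Bcl2l10 is above its mean on both GDNF arrays and below it on both control arrays. Of the control arrays, Bcl2l10 is lower on replicate 2, where each of the 6 oocyte markers is higher. Bcl2a1 is highest on control replicate 2, where none of the 7 leukocyte markers is highest.

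Downstream of the mitochondrion, genes of the death pathway were close to even. Of 16 listed genes 12 were tested, 5 higher and 7 lower, with a median log2 fold change of -0.03. None passed the threshold in limma (0 of 12 with an unadjusted p under 0.05, beside 2.73% of all probe sets tested). Casp6, an executioner caspase, had 0.20 (SE 0.18) and Parp1, a DNA repair enzyme that caspases cleave, 0.13 (SE 0.10). In this list 2 of 12 genes had both GDNF arrays above both controls, beside 13.4% of all probe sets tested. These were Parp1 and, named after its values were seen, Dffa. The list also held 1 gene with both below, beside 16.6% of all probe sets tested. That 1 was Casp9, the initiator caspase of the apoptosome, which read 85.6 and 96.9 on the control arrays and 75.1 and 80.5 on the GDNF arrays (-0.23, SE 0.17). The channel gene Vdac1 had -0.11 (SE 0.13). Casp6 turned to -0.02 without control replicate 1, and Vdac1 to 0.03 without GDNF replicate 2.

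All 4 tested inhibitors of apoptosis, proteins that block caspases or death receptor signalling, had a higher mean with GDNF (4 of 5 listed, median log2 fold change 0.14). None passed in limma (0 of 4 with an unadjusted p under 0.05, beside 2.73% of all probe sets tested). Without GDNF replicate 1 only 2 of the 4 were higher. Birc3 read 110 and 105 on the control arrays and 142 and 118 on the GDNF arrays (0.26, SE 0.16, limma adjusted p = 0.999). It was higher without overlap (1 of 4 genes, beside 13.4% of all probe sets tested). Birc2 (0.15, SE 0.16), Birc5 (0.13, SE 0.25) and Xiap (0.07, SE 0.25) overlapped between groups. Each of these turned sign with an array left out, to -0.06 for Birc2 without GDNF replicate 2, and to -0.21 for Birc5 and -0.29 for Xiap without GDNF replicate 1.

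Upstream regulators of the family split into 9 higher and 14 lower among 23 tested of 26 listed, with a median log2 fold change of -0.0038 and none past the threshold in limma (1 of 23, Bag3, with an unadjusted p under 0.05, beside 2.73% of all probe sets tested). Without GDNF replicate 2, 15 were higher. Foxo1 and Foxo3 encode transcription factors that can induce Bcl2l11. Foxo1 read 99.7 and 76.7 on the control arrays and 210 and 93.5 on the GDNF arrays (0.67, SE 0.35), and 0.095 without GDNF replicate 1. Foxo3 read 816 and 938 on the control arrays and 689 and 854 on the GDNF arrays (-0.19, SE 0.14), with overlap. Mapk8, which encodes the stress kinase JNK1, read 264 and 259 on the control arrays and 295 and 306 on the GDNF arrays (0.20, SE 0.12), and its other tested probe sets had 0.12 and 0.21. In all 3 both GDNF arrays were above both controls. Bag3, a co-chaperone that stabilises survival proteins, read 141 and 137 on the control arrays and 116 and 95.8 on the GDNF arrays (-0.39, SE 0.16, limma adjusted p = 0.999). For Bag3 both GDNF arrays were below both control arrays. By their brightest probe sets, 2 of 23 regulators were higher without overlap, beside 13.4% of all probe sets tested. These were Mapk8 and, named after its values were seen, Bag1. Bag3 was the 1 regulator lower without overlap, beside 16.6% of all probe sets tested.

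**Figure D5:**
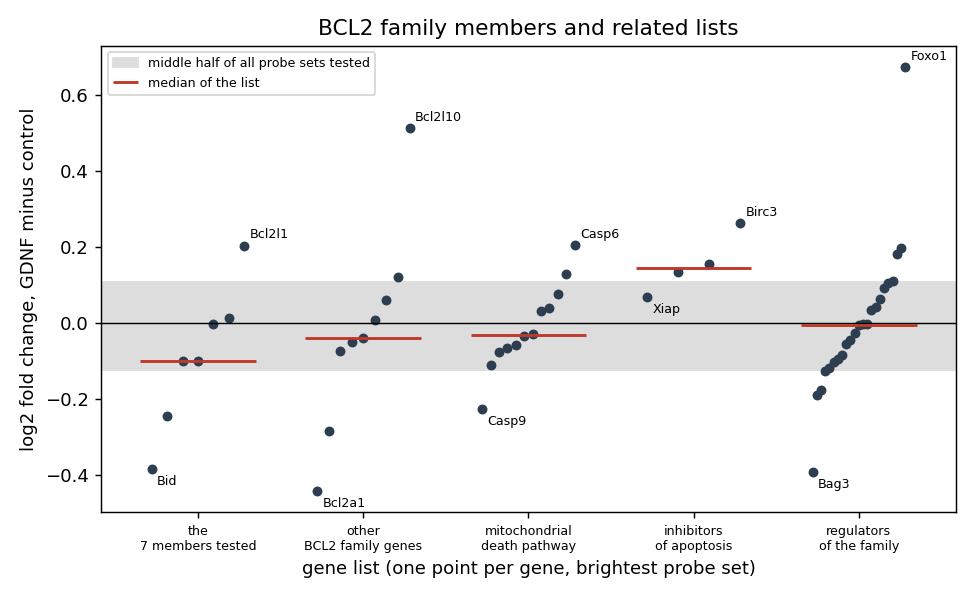
Log2 fold change (GDNF minus control) of each tested gene, by its brightest probe set, for the BCL2 family members and 4 related lists, with the median of each list in red. The grey band holds the middle 50 percent of all probe sets tested, and the highest and lowest gene of each list are named. Medians run from -0.10 for the members to 0.14 for the inhibitors of apoptosis.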

How the data were processed

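RNA of 4 samples was measured on Affymetrix rat arrays. The authors deposited linear intensities (signals) made with MAS5, per the submitters' processing notes. No version is named there. Trimmed means were equal on the 4 arrays, so a change in total RNA cannot be seen. Median signals were 36.7 to 41.1. Detection calls were not used here. Precision is limited by the number of arrays.

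The 57 control probe sets were left out. Gene symbols came from the GEO annotation of the platform: of 31042 probe sets, 20826 had 1 symbol, 436 several and 9780 none. Log2(signal + 1) of the 18625 probe sets at or above the 40th percentile was fitted with limma 3.58.1 in R 4.3.3 (lmFit, eBayes with a trend), group as the only term. Tests were two-sided with Benjamini-Hochberg adjustment over all probe sets tested and a threshold of 0.05. A gene's value is that of its brightest probe set. All members, and the 2 highest and 2 lowest genes of each related list, were to be named. Members and lists were chosen with earlier results of these data known. Nothing says that replicates came from separate cultures or litters, so p-values reflect a spread that may be technical. The fit was tested on simulated data with independent samples, drawn from the variance model that limma assumes. Such a test checks the code and cannot address that limit.

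Alternatives were the pseudocount, the filter, normalization, the variance trend, a block by replicate number, averaging a gene's probe sets, and leaving out each sample.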

Additional observations from a re-analysis of the deposited data

How the results depend on the processing

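No BCL2 family gene passed the threshold in any of the 12 alternatives. Mcl1, Bcl2l11 and Bid kept a lower mean in GDNF in every alternative in which they were tested. Bak1 turned to 0.0052 with quantile normalization. With each array left out in turn Bak1 ran from -0.23 to 0.22, Bcl2l1 from -0.28 to 0.69, Bok from -0.22 to 0.023 and Bad from -0.019 to 0.046. Without a filter, which adds Bcl2 and Bmf, 4 of 9 genes had a higher mean and the median was -0.0019, beside -0.013 over all probe sets. With the filter at the 60th percentile, which drops the dimmer genes, 1 had a higher mean. Leaving out arrays gave a median from -0.14 to -0.019 (beside -0.023 to 0.0026 over all probe sets tested) and 2 to 3 genes with a higher mean. It gave 5 genes without overlap each time, since a single sample has fewer ways to overlap. With the replicate number as a block, 8 probe sets passed over the whole table and none was a member. The oocyte marker Gdf9 was among them (limma adjusted p = 0.0469, against 0.999 without the block). The block fit had a median of 18.2 total degrees of freedom, against 7.1 without the block, most of them borrowed across probe sets. What the replicate number stands for is not in the labels, and deviations of same-numbered samples correlated at r = 0.32 across probe sets. The planned difference between Bax and Bcl2 was not run, because Bax had no probe set of its own. Dim signals limit Bcl2, Bmf and Bak1.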
